A study of Mus musculus with 6 samples.

Results

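Desmosomes are the junctions that rivet epithelial and heart muscle cells to each other and anchor their intermediate filaments. Desmosomal cadherins, the desmocollins and desmogleins, bridge the gap between neighbouring cells. Inside the cell the armadillo proteins plakoglobin and plakophilin bind the cadherin tails, and desmoplakin ties this plaque to keratin filaments in epidermis and to desmin in heart. The epidermis is the skin layer rich in desmosomes, whereas dermal fibroblasts are not known for them. The 10 genes described here are the cadherin genes Dsc2, Dsc3, Dsg2 and Dsg3, the armadillo genes Jup, Pkp1, Pkp2 and Pkp3, the desmoplakin gene Dsp, and Perp, which encodes a tetraspan membrane protein of desmosomes. They were taken by name from the 19938 genes that the array annotation names singly, and each had 1 probe set with a single gene symbol, so no choice between probe sets arose.

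Dermal cells from the skin of neonatal C57BL/6 mice were kept in culture for 2 days in medium holding forskolin and RepSox, each at 20 µM (the 3 arrays labelled FR), or in medium without them (the 3 arrays labelled DMSO, after the solvent). Forskolin raises cyclic AMP by switching on adenylyl cyclase, and RepSox blocks the kinase of the TGF-β type I receptor. The compounds were given together, so their separate effects cannot be told apart. Whether replicates are separate cultures or animals is not stated in the labels, and a p-value here covers the spread between the 3 samples alone, which may be technical.

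Levels are log2 RMA values, a scale on which 1 unit is a 2-fold difference, and each change gives FR minus DMSO means over n = 3 arrays per group. Array medians lay from 6.01 to 6.07 in FR and from 5.98 to 6.00 in DMSO. The 95th percentile of 1027 olfactory receptor genes, a family mostly silent outside the nose, was taken as a background level and came to 5.92 in FR and 5.65 in DMSO. Of these olfactory receptor genes 102 were called higher and 6 lower with FR, and their median change was 0.14. Fibroblast markers were bright in both groups, with a mean level over 10 genes of 10.60 to 10.67 in FR and 10.73 to 10.77 in DMSO. In such bulk RNA, fewer cells of a type and less RNA per cell cannot be told apart.

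The comparison of FR with DMSO asks what the compound pair did to the expression of these genes within 2 days. Of the 10 desmosome genes, 6 were higher with FR, 1 was lower and 3 did not pass the test (limma, Benjamini-Hochberg adjusted p under 0.05 over all genes). Over all 19938 genes, 13.4% were called higher and 14.5% lower, together 27.9%. Perp, Dsc3, Dsg3 and Dsp rose with fitted log2 changes of at least 1, and 1.63% of all genes did so. The median change over the 10 genes was 0.48, against 0.05 over all genes. FR and DMSO arrays did not overlap for 7 of the 10 genes, while 43.9% of all genes had groups that did not overlap. The share of higher among all called genes was 48.0%, and 35.3% with each array centred on its median.

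**Figure D1:**
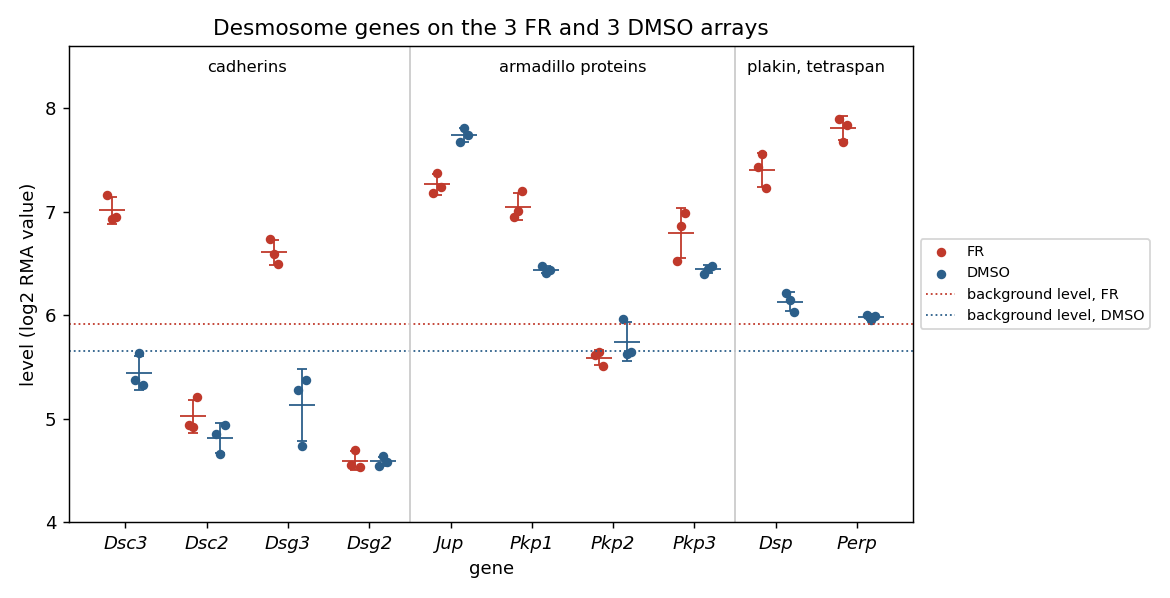
Level of each desmosome gene (vertical axis, log2 RMA value) on the 3 FR arrays (red, left) and the 3 DMSO arrays (blue, right), with the mean as a long tick and the SD as a bar; dotted lines mark the background level of each group. The FR points lie above the DMSO points for Dsc3, Dsg3, Pkp1, Pkp3, Dsp and Perp, below them for Jup, and overlap with them for Dsc2, Dsg2 and Pkp2.

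Among the cadherin genes 2 of 4 rose. Dsc3 and Dsg3, the desmocollin and desmoglein of the basal layers of stratified epithelium, rose with FR, whereas Dsc2 and Dsg2, used more widely in simple epithelia and heart, lay within the background range and did not pass. Dsc3 read 7.16, 6.93 and 6.94 on the FR arrays, against 5.37, 5.63 and 5.33 on the DMSO arrays. The DMSO arrays all lay under the background level, so the rise is given as at least 2.56-fold (log2 change 1.57, SE 0.11, 95% interval 1.33 to 1.80, adjusted p = 1.84e-06). Dsg3, whose product is the main autoantigen in human pemphigus vulgaris, read 6.736, 6.591 and 6.495 in FR, against 5.28, 4.73 and 5.38 in DMSO. All of its DMSO arrays were again under background, and the rise was at least 1.94-fold (log2 change 1.48, SE 0.15, adjusted p = 3.57e-05). DMSO replicate 2 stood below the other DMSO arrays for Dsg3, and the SD of that group, 0.35, was the highest of any group of the 10 genes.

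Dsc2 read 4.94, 4.92 and 5.21 in FR and 4.85, 4.66 and 4.94 in DMSO. The groups overlapped, both lay under background, and the log2 change of 0.20 did not pass (95% interval -0.04 to 0.44, adjusted p = 0.186). Dsg2 read 4.56, 4.70 and 4.53 in FR and 4.54, 4.64 and 4.58 in DMSO. Its log2 change of 0.01 had a 95% interval of -0.18 to 0.20 (adjusted p = 0.947), and its sign turned under quantile normalization, cyclic loess and centring on medians. A change in a small amount of transcript may not be detectable at such levels.

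The desmosomal cadherin genes form an unbroken cluster on chromosome 18 of the mouse genome. In the GRCm38.p6 annotation the order of the 9 genes is Dsc3, Dsc2, Dsc1, Dsg1c, Dsg1a, Dsg1b, Dsg4, Dsg3 and Dsg2, with 0 other protein-coding genes between them. Of the 7 with a probe set of their own, the called genes were Dsc3 and Dsg3, which lie near opposite ends of the cluster. Dsc2, beside Dsc3, and Dsg2, beside Dsg3, did not pass. Dsc1 and Dsg1a had no probe set of their own. The remaining measured genes, Dsg1c, Dsg1b and Dsg4, were dim, with both group means under background. Their log2 changes were 0.39 (adjusted p = 0.109), 0.04 (adjusted p = 0.81) and 0.14 (adjusted p = 0.233). A probe set shared by Dsg1a, Dsg1b and Dsg1c, described near the end, had a log2 change of 1.158, also with both means under background.

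The armadillo genes moved in both directions. Plakoglobin, encoded by Jup, is the armadillo protein shared by desmosomes and adherens junctions, and it was the member that fell. Jup read 7.18, 7.37 and 7.24 on the FR arrays, against 7.67, 7.81 and 7.74 on the DMSO arrays. Every FR array lay below every DMSO array, and the mean was 7.26 ± 0.10 in FR and 7.74 ± 0.07 in DMSO (SD, n = 3 each), so that Jup was 1.39-fold lower (log2 change -0.48, SE 0.09, 95% interval -0.67 to -0.28, adjusted p = 0.00224). Its level in DMSO stood at the 75.4th percentile of all genes.

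Of the plakophilin genes, whose products link desmoplakin to the plaque, Pkp1 and Pkp3 rose and Pkp2 did not pass. Pkp1, the plakophilin whose loss in humans causes skin fragility, read 6.946, 7.001 and 7.197 in FR, against 6.47, 6.41 and 6.43 in DMSO. It rose 1.53-fold without overlap of the groups (log2 change 0.61, SE 0.09, adjusted p = 0.000519). Pkp3, found in most epithelial desmosomes, read 6.52, 6.86 and 6.99 in FR, against 6.40, 6.45 and 6.48 in DMSO. FR replicate 1 lay only just above the DMSO arrays, and the rise of 1.27-fold passed narrowly (log2 change 0.35, SE 0.12, adjusted p = 0.0449). The Pkp3 call was lost under 9 of 16 alternatives, among them quantile normalization (adjusted p = 0.0571), cyclic loess (0.0521), centring on medians (0.0644) and leaving out any array except FR replicate 1, where adjusted p lay from 0.086 to 0.147.

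Pkp2, the plakophilin of heart and simple epithelia, read 5.61, 5.64 and 5.51 in FR and 5.96, 5.62 and 5.65 in DMSO. The groups overlapped and the change did not pass (log2 change -0.16, 95% interval -0.39 to 0.08, adjusted p = 0.292). The FR mean of Pkp2 lay under background, and of the DMSO arrays replicate 1 alone lay above the background level of its group.

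Dsp and Perp rose on every FR array. Desmoplakin, the product of Dsp, is the plakin that all desmosomes need to hold intermediate filaments. Dsp read 7.43, 7.55 and 7.22 in FR, against 6.22, 6.14 and 6.03 in DMSO. It rose 2.41-fold (log2 change 1.27, SE 0.10, 95% interval 1.045 to 1.498, adjusted p = 6.19e-06). Perp is a target of the transcription factors p53 and p63 and is needed for stable desmosomes in mouse skin. It read 7.90, 7.68 and 7.84 in FR, against 6.00, 5.95 and 6.00 in DMSO. Its 3.54-fold rise was the highest among the fitted changes of the 10, where those of Dsc3 and Dsg3 start under background (log2 change 1.82, SE 0.09, adjusted p = 1.63e-07) and ranked 70 among the rises of all genes. The DMSO arrays of Perp agreed closely, with an SD of 0.03 at a level of 5.98 that lies above background.

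**Figure D2:**
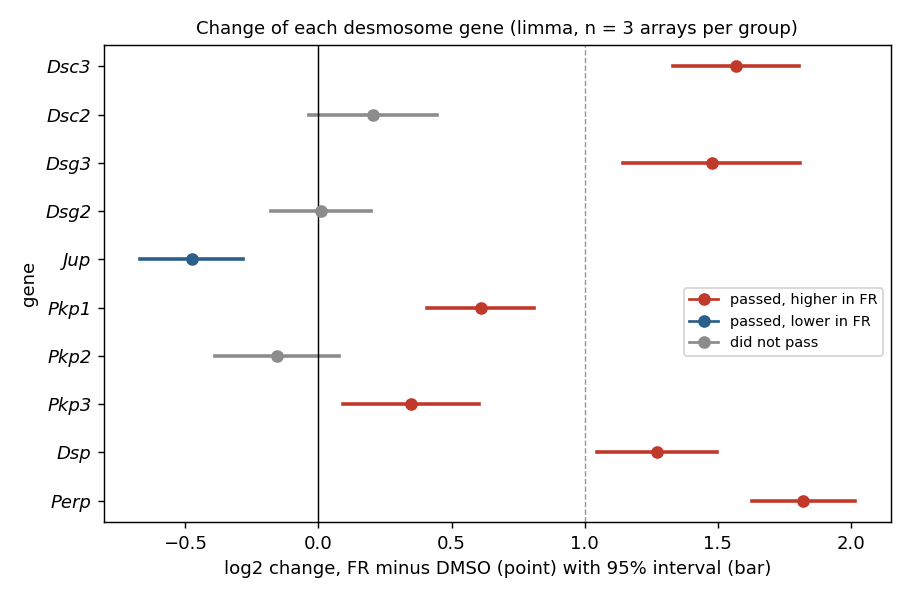
Log2 change of each desmosome gene, FR minus DMSO (horizontal axis), with its 95% interval from limma as a bar; red passed and was higher in FR, blue passed and was lower, grey did not pass, and the dashed line marks a change of 1. The intervals of Perp, Dsc3, Dsg3 and Dsp lie wholly right of the dashed line, and that of Jup lies wholly below 0.

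Promoter sequence was matched for 2 of the 10 genes, Jup and Dsp, a gene that fell and a gene that rose. The 250 bases before each start are shown from RefSeq (GRCm38.p6), 5′ to 3′ in the direction of the gene, from chr11:100397791-100398040 on the minus strand for Jup and chr13:38151044-38151293 on the plus strand for Dsp. Capitals mark the GC box, GGGCGG on either strand, and the CCAAT box, CCAAT on either strand. No match of these motifs overlaps another.
Jup: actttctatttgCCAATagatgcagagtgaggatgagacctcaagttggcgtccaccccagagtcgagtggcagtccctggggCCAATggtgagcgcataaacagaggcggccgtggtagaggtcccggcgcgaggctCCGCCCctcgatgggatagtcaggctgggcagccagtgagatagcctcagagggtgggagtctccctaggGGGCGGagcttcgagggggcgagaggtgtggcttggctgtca
Dsp: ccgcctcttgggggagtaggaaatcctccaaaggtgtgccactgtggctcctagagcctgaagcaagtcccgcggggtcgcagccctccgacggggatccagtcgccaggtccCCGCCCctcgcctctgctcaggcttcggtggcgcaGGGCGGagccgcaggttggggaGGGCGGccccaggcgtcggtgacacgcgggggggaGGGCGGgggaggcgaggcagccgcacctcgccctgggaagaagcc

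Both stretches were rich in G and C, at 62.0% for Jup and 72.4% for Dsp, against a median of 52.4% over 32841 promoter windows of the same length. They held 13 CpG pairs in Jup and 22 in Dsp, against a median of 6. The GC box occurred at 2 places in Jup and 4 in Dsp, and 32.7% of all windows held it. The CCAAT box occurred at 2 places in Jup and 0 in Dsp, and 33.9% of all windows held it.

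Motifs of factors tied to the compounds or to epithelium, and the TATA box, added later, were searched on both strands of the same windows. None was found in the window of either gene. They were the core of the cyclic AMP response element, TGACG (held by 17.8% of all windows), its full palindrome TGACGTCA (1.55%), the AP-1 site TGANTCA (6.75%), the E-box CAGGTG of Snail and ZEB factors (17.2%), the grainyhead site AACNGGTT (1.79%), the TEAD site GGAATG (12.6%), the SMAD palindrome GTCTAGAC (0.167%), the p53 family response element (0.00913%) and the TATA box TATAAA (12.4%). The full palindrome contains the core, and each match is only a run of letters in this window. Most of all windows lack each of these motifs, so their absence here says little.

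Paralogs were then set against each other within each array, Dsc3, Dsg3 and Pkp1 of stratified epithelium, and Pkp3, minus the relative that is also used in heart. The difference between probe sets has no meaning as a level, but its shift between groups is the difference of the changes. Dsc3 minus Dsc2 lay from 1.74 to 2.22 in FR and from 0.38 to 0.97 in DMSO, so the changes differed by 1.36. Dsg3 minus Dsg2 lay from 1.89 to 2.18 in FR and from 0.10 to 0.79 in DMSO, a difference of changes of 1.47. Pkp1 minus Pkp2 lay from 1.33 to 1.69 in FR and from 0.51 to 0.79 in DMSO, a difference of 0.76, and Pkp3 minus Pkp2 lay from 0.91 to 1.48 in FR and from 0.44 to 0.83 in DMSO, a difference of 0.50. None of the 4 pairs overlapped between groups. The share of all genes without overlap, 43.9%, is for genes taken singly and not for differences of pairs. Each pair sets a gene called higher against a gene that did not pass, so a lack of overlap was likely beforehand. Pkp2 enters both plakophilin pairs. Without DMSO replicate 2, which was low for Dsg3, the differences were 1.54 for Dsc3 minus Dsc2 and 1.25 for Dsg3 minus Dsg2. The exact permutation test gave p = 0.1 for each pair, two-sided and the same after adjustment over the 4 pairs, and 0.1 is the smallest p this permutation test can give with 3 arrays against 3, so it cannot pass at 0.05. For Pkp3 minus Pkp2 the adjusted p of this test was 0.2 without DMSO replicate 1, and also 0.2 without DMSO replicate 2. Dsc2 and Dsg2 in both groups, and Pkp2 in FR, lay under background.

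**Figure D3:**
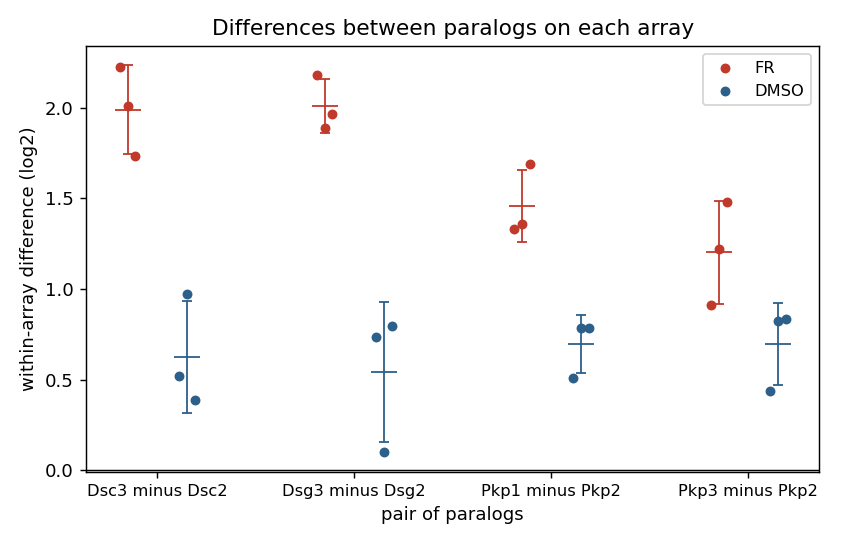
Within-array difference of 2 paralogs (vertical axis, log2 units) on the 3 FR arrays (red, left) and 3 DMSO arrays (blue, right), with the mean as a long tick and the SD as a bar. In all 4 pairs the FR points lie above the DMSO points.

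Within a group the 10 genes did not rise and fall as a block from array to array. Between 4 and 6 of the 10 lay above their own group mean on each of the 6 arrays, and the mean level of the 10 genes lay from 6.498 to 6.525 in FR and from 5.80 to 5.88 in DMSO. The genes whose centred values over the 6 arrays were nearest to the mean of the 10 were Irs1, Col3a1, Plagl1, Nop10 and Snai2. Their root mean square differences were 0.02 to 0.04 log2 units among 18259 genes compared. All 5 share the step between groups, with changes from 0.63 to 0.72 against a mean of 0.67 for the 10, and the 6 values of a gene are in effect 2 clusters. Irs1 encodes an adaptor of the insulin receptor, Col3a1 a fibrillar collagen chain and Snai2 a repressor of epithelial genes.

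Counts in the gene lists from here on stand beside 13.4% called higher and 14.5% called lower over all genes. Further genes of the desmosome and of the cornified layer were counted too. Of 7 with a probe set of their own, 2 rose and 0 fell, with a median change of 0.23. Cdsn, which encodes corneodesmosin of the desmosomes of cornified cells, rose 1.45-fold (6.49 ± 0.29 in FR and 5.95 ± 0.07 in DMSO, SD, n = 3 each, adjusted p = 0.0102). Ppl, which encodes the plakin periplakin, rose 1.57-fold (6.32 ± 0.07 in FR and 5.67 ± 0.02 in DMSO, adjusted p = 0.000152). The related plakin gene Evpl had a log2 change of 0.12 (adjusted p = 0.314). Pkp4, an armadillo gene used in other junctions as well, had a log2 change of 0.23 (adjusted p = 0.0534).

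Keratins, the filaments that desmosomes hold in epidermis, rose in 8 of 13 cases and fell in 0, with a median change of 0.55. Krt5 and Krt14 form the filaments of basal keratinocytes. Krt5 averaged 10.46 ± 0.08 in FR and 8.29 ± 0.16 in DMSO (4.52-fold), and Krt14 rose by 1.58 on the log2 scale. Krt16 and Krt6a, induced in wounded epidermis, rose 4.08-fold and 3.10-fold. Keratins of simple epithelium did not pass, with log2 changes of 0.28 for Krt8, 0.05 for Krt18, 0.09 for Krt7 and -0.11 for Krt19. Of these, Krt18 and Krt19 lay under background in both groups and Krt7 did so in FR, where a change may not be detectable. Among the keratins that rose, Krt15 and Krt6b also lay under background in both groups. Vim, the filament gene of fibroblasts, fell by 0.66 on the log2 scale. Nes, the nestin gene, rose by 0.39 with both groups under background (adjusted p = 0.0172), a call lost without FR replicate 2 or DMSO replicate 3 (adjusted p of up to 0.0567). Des, the desmin gene, had a log2 change of 0.05 at background.

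Adherens junction genes, whose junctions are built on the same plan around actin, had 2 of 16 higher and 6 lower and a median change of -0.06. The actin linker gene Vcl fell by 1.05, the N-cadherin gene Cdh2 by 0.89 and the p120 catenin gene Ctnnd1 by 0.72. Cdh1, which encodes the E-cadherin of epithelium, rose 1.70-fold (6.75 ± 0.11 in FR and 5.99 ± 0.11 in DMSO, adjusted p = 0.000132), and Afdn, an actin-binding scaffold gene, rose by 0.29, a call lost with any array left out except FR replicate 3 (adjusted p of up to 0.139). The armadillo relative of Jup, the β-catenin gene Ctnnb1, averaged 9.36 in FR and 9.90 in DMSO, a log2 change of -0.54 (adjusted p = 0.00182) beside -0.48 for Jup. The α-catenin gene Ctnna1, whose protein binds both, also fell by 0.54 (adjusted p = 0.00118). Ctnnb1 and Ctnna1 were picked out after their values were seen, the first as a relative and the second as a partner of plakoglobin.

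Hemidesmosomes, which fix keratin filaments to the basement membrane, had 5 of 8 genes higher and 2 lower, with a median change of 0.40. The integrin genes Itga6 and Itgb4 rose 1.83-fold and 1.48-fold, while the plakin genes Plec and Dst fell by 0.80 and 0.69. These plakins are also made by fibroblasts and muscle. Among 10 tight junction genes, 1 rose and 1 fell: the claudin gene Cldn1 rose at least 2.06-fold and the scaffold gene Tjp1 fell by 0.43. Of 4 gap junction genes, Gjb2 and Gjb5 rose, by 0.47 and 0.33 with both groups under background, and 0 fell.

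Genes for enzymes and receptors that act on desmosomes rose in 3 of 12 cases and fell in 2, where 13.4% of all genes were called higher and 14.5% lower. The EGF receptor gene Egfr rose 2.05-fold, the protease gene Klk7, whose product cuts corneodesmosin, rose 1.61-fold and the transglutaminase gene Tgm1 rose 1.39-fold. The protein kinase C genes Prkcd and Prkca fell by 0.32 and 0.26, but the call of Prkca was lost with any array left out (adjusted p from 0.0558 to 0.147) and that of Prkcd without FR replicate 3, DMSO replicate 1 or DMSO replicate 2 (up to 0.0597). Epithelial transcription and splicing factors rose in 5 of 12 cases and fell in 1. Trp63, which encodes the p63 that activates Perp, rose 2.30-fold (7.16 ± 0.14 in FR and 5.96 ± 0.13 in DMSO, adjusted p = 9.71e-06). Klf5 rose 1.48-fold, Esrp1 rose by 0.38 within the background range, and Klf4 fell by 0.46. Repressors of epithelial genes rose in 5 of 6 cases, led by Snai2 (0.72), Twist1 (0.55) and Twist2 (0.50), while Zeb1 fell by 0.46.

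**Figure D4:**
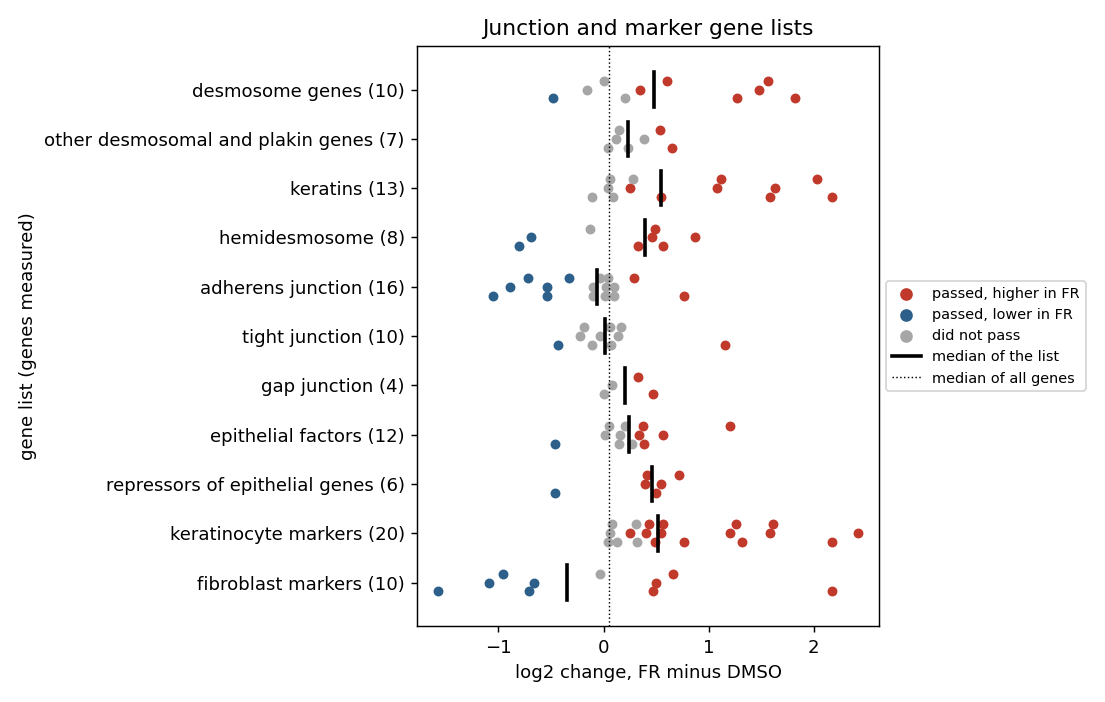
Log2 change, FR minus DMSO (horizontal axis), of each measured gene in 11 gene lists (rows, with the number measured); red passed and was higher in FR, blue passed and was lower, grey did not pass, black ticks are list medians and the dotted line is the median of all genes, 0.05. Desmosome genes, keratins, keratinocyte markers and fibroblast markers reach beyond 1.5. Desmosome, adherens junction and fibroblast genes are among the lists that spread to both sides of 0.

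Most measured markers of keratinocytes rose, as did 6 of the 10 desmosome genes. Without any desmosome gene among them, 14 of 20 measured keratinocyte markers rose and 0 fell, with a median change of 0.52. Their summed level on the linear scale was 3920 to 4034 in FR and 1568 to 1633 in DMSO, and their mean level was 6.63 to 6.72 in FR and 5.87 to 5.90 in DMSO. Krtdap rose at least 3.13-fold and Sbsn 3.06-fold, both genes of differentiating epidermis. The markers Krt1, Krt15, Epcam, Lor, Ivl and Aqp3 lay under background in both groups, and of these Krt15 and Lor were among those that rose. Krt5, Krt14, Krt15, Krt10, Trp63, Cdh1, Itgb4 and Col17a1 rose and were already counted in the lists above, so the lists are not independent. The part of keratinocyte number or state in the changes of the desmosome genes was not tested.

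Markers of further cell types were counted in the same way, beside 13.4% higher and 14.5% lower over all genes. Of 9 heart muscle markers, 2 rose (Tnnt2 by 0.54, and Actn2 by 0.48 under background) and Nppa, under background in FR, was at least 1.05-fold lower, with a median change of 0.08, and the summed level was 555.6 to 626.0 in FR and 502.0 to 529.2 in DMSO. The defining heart gene Myh6 was under background in both groups. Of 9 endothelial markers, Emcn and Tek rose by 0.68 and 0.54 under background and 0 fell, with a median change of 0.17 and a summed level of 372.1 to 394.5 in FR and 319.1 to 341.9 in DMSO. Of 6 melanocyte markers, Tyrp1 (under background) and Pmel rose by 0.42 and 0.31 and 0 fell, with a median change of 0.21 and a summed level of 314 to 357 in FR and 275 to 301 in DMSO. Of 7 immune markers, Cd74 rose by 0.33 under background and 0 fell, with a median change of 0.16. Their summed level was 300.4 to 338.1 in FR and 294.8 to 308.9 in DMSO, and Ptprc lay under background in both groups. Under background in both groups were 4 of the heart muscle, 7 of the endothelial, 3 of the melanocyte and 5 of the immune markers. The olfactory receptor genes had a median change of 0.14 beside these medians, with 102 of 1027 called higher and 6 lower. Among 10 fibroblast markers 4 rose and 5 fell: Lum rose 4.51-fold, Dcn 1.39-fold and Col3a1 1.58-fold, and Col1a2, Col1a1 and Pdgfrb fell by 1.57, 1.09 and 0.96. The part of these markers in the changes of the desmosome genes was not tested.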

How the data were processed

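The authors deposited log2 values for 35556 probe sets on each of 6 one-colour Affymetrix arrays, made by RMA in the oligo package per the submitters' processing notes, with versions and genome build not given in the sources used here. The log2 scale was checked from the range of the values, 0 were missing, and arrays were grouped by their titles. The annotation named 21789 probe sets with 1 gene symbol and 1621 with several, which were left out of the tests. The brightest probe set of a gene over all 6 arrays gave 19938 genes.

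The test was that of limma 3.58.1 (R 4.3.3; lmFit, then eBayes, with group as the single term, two-sided), with Benjamini-Hochberg adjustment over all genes and a threshold of 0.05. No filter on dim genes was used. A fold against a group under the background level was taken against that level and is written as at least the value. The number of arrays limits the precision; the median SE of a change was 0.10. The fit was also run on simulated data with independent noise, which checks the code and not the calls made here.

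The 10 genes and the gene lists were chosen with earlier results of these data known. Named genes are the 10, all measured further desmosomal genes, the 4 largest called changes of each other list with any called member that went against its list, and the 5 nearest in pattern; others are named as such or to complete a small count. The GC, CCAAT and TATA boxes were added after the sequences were seen. Alternatives covered normalization between arrays, dim genes, probe sets, the variance model, a block for the replicate number, and each array left out in turn.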

Additional observations from a re-analysis of the deposited data

Results flagged for a closer look

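The probe set shared by the desmoglein genes Dsg1a, Dsg1b and Dsg1c carries several symbols and so entered no test of a gene. It read 5.48, 5.63 and 5.39 on the FR arrays, against 4.39, 4.43 and 4.21 on the DMSO arrays. Every FR array lay above every DMSO array, which is why it is given here, with a log2 change of 1.158 (SE 0.10, limma adjusted p = 0.000827 over all 35556 probe sets). Both means lay under the background level, and the probe sets of Dsg1b and Dsg1c alone gave changes of 0.04 and 0.39 that did not pass.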

How the results depend on the processing

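Over 16 alternatives the count of desmosome genes higher with FR was 5 or 6, that of genes lower was 1 and that of genes with a fitted log2 change of at least 1 was 4, counting Dsg3, whose bound against background is lower. The calls of Dsc3, Dsg3, Dsp, Perp, Pkp1 and Jup held under all 16, and that of Pkp3 under 7. With dim genes left out, 7 of the 10 genes were tested. The change of Dsg2 turned negative with quantile normalization (-0.069), centring on medians (-0.047) and cyclic loess (-0.10), and lay between -0.043 and 0.042 with an array left out, without passing in any case. With ordinary variance the changes stayed the same and the spread came from each gene alone. In that fit 3364 of all genes passed, 1484 higher and 1880 lower. With an array left out, the count of all genes called ran from 4033 to 5914.

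The replicate number as a block gave 4977 genes and the same count of 7 desmosome genes. Deviations of same-numbered arrays correlated across genes with r of -0.07, 0.05 and -0.03, and the highest r, 0.12, belonged to arrays of different number, so the numbers were not taken as pairs. Of 512 counts of other gene lists under alternatives, 74 moved by over 1.5 times. With quantile normalization, cyclic loess and centring alike, higher calls came to 1 among gap junction genes, 3 among epithelial factors and 1 among melanocyte markers. Of 50 called genes chosen by rule from the gene lists, 42 kept their call with each array left out in turn. Those that lost it at least once were Nes, Afdn, Gjb5, Prkcd, Prkca, Nppa, Pmel and Cd74, with adjusted p of up to 0.168. Further called genes named above, among them Irs1, Plagl1, Nop10, Ctnnb1 and Ctnna1, were not in this count. Signal near background limits what can be said of Dsc2, Dsg2 and Pkp2.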
